A study of Mus musculus with 6 samples.

Results

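The stefin A genes of mouse chromosome 16 and the related gene Cstb were followed by RNA sequencing in 32D cells, a mouse myeloid progenitor line that grows in interleukin 3. The 7 genes are Stfa1, Stfa2, Stfa2l1, Stfa3, Gm5483, BC100530 and Cstb, taken by symbol from the 47606 genes listed for each library. The genes were chosen by their FPKM in the guide and EV libraries, which were already known, so those values are given as a description with no test. The series is titled for a CEBPE enhancer, CEBPE being a transcription factor needed late in granulocyte development, and its design sets knock-down by 2 guides against an empty vector.

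All cells expressed dCas9-KRAB, in which a Cas9 without cutting activity is joined to the KRAB repressor. They received lentivirus with guide sg2 (genotype dCas9-KRAB-sg2, 2 libraries), guide sg5 (dCas9-KRAB-sg5, 2 libraries) or the empty vector (dCas9-KRAB-EV, 2 libraries). Per the labels' protocols, every culture had 1 ng/mL of interleukin 3 and was selected with puromycin over a week. The sources used here give neither the guide sequences nor where the guides bind. The second sg5 library is sg5 by its title, while its source name and genotype say sg2, and it was counted as sg5. Whether the replicates were separate cultures is not stated, so a p-value here sets a difference against the spread of these libraries alone, which may be technical.

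Stefins are small proteins of the cystatin superfamily that bind and block papain-like cysteine proteases, the cysteine cathepsins among them. They lack a signal peptide and act mostly inside the cell, unlike the secreted cystatin C. The stefin A gene is duplicated many times in mouse, and several of the copies are known as transcripts of neutrophils and their precursors. Cstb encodes stefin B, which is made in most cell types, and loss of its human counterpart causes a progressive myoclonus epilepsy.

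The 6 stefin A genes lie together on GRCm38 chromosome 16, between 36156811 and 36455392, and each has 3 exons in GENCODE M21. Their order along the chromosome is Stfa2l1 (36156811 to 36161953), Gm5483 (36184212 to 36188111), Stfa1 (36276951 to 36285373), BC100530 (36359382 to 36367748), Stfa2 (36403992 to 36408457) and Stfa3 (36450537 to 36455392). The first 3 are on the plus strand and the other 3 on the minus strand. Cstb is on chromosome 10, at 78425669 to 78427622 on the plus strand. The coding sequence is 291 nt long in Stfa1, Gm5483 and BC100530, 309 nt in Stfa2, Stfa2l1 and Stfa3, and 294 nt in Cstb. Gm5483 and BC100530 carry provisional names, and no role of their own is given to them here.

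Promoters of 4 of the stefin A genes were in the RefSeq table for GRCm38.p6, and the 120 bases before each annotated start are shown because all 4 hold TTTAAA at nearly the same distance. Capitals mark matches on either strand to TTTAAA, an AT-rich motif, and to TTNNGNAA, a core that C/EBP factors are known to bind.
Stfa1 (chr16:36277028-36277147, plus strand): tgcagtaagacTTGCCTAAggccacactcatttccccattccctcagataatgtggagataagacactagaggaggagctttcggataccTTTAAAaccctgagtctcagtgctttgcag
Stfa2 (chr16:36408364-36408483, minus strand): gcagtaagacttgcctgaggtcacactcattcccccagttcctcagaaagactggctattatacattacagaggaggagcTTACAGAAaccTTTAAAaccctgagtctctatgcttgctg
Stfa2l1 (chr16:36156691-36156810, plus strand): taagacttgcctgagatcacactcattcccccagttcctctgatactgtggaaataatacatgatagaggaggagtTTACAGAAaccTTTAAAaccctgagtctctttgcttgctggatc
Stfa3 (chr16:36455393-36455512, minus strand): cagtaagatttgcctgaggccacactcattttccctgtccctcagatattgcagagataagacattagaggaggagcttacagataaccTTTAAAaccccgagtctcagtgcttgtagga
TTTAAA began at base -30 in Stfa1, -29 in Stfa2, -33 in Stfa2l1 and -31 in Stfa3, where -1 is the last base before the start. Of 32851 mouse promoters of the table, 12.1% held TTTAAA in the 250 bases before the start. TTNNGNAA began at base -40 in Stfa2 and -44 in Stfa2l1, and at -109 in Stfa1, and 36.8% of all promoters held it. Stfa3 had no match to TTNNGNAA in its window. The RefSeq starts of Stfa1 and Stfa2 lie inside the longer genes that GENCODE M21 annotates. All of the Stfa1 bases shown and most of the Stfa2 bases shown therefore fall within those genes. The 4 promoters were 80.2% to 89.4% identical, with Stfa2 and Stfa2l1 the closest. The other copies of the cluster in the table differ from them: TTTAAA began at base -230 in Csta1 and -77 in Csta3, Csta2 had no match, and these promoters were 37.4% to 60.4% identical to the 4. A match describes the letters of the window only.

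The stefin A copies are close enough in sequence that reads can match more than 1 of them. To show this, 60 coding bases of each gene, aligned to bases 31 to 90 of the Stfa1 coding sequence (GENCODE M21), are given here. Capitals mark bases unlike Stfa1.
Stfa1: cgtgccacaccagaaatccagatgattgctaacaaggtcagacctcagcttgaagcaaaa
BC100530: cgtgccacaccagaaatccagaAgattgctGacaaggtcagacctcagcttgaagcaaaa
Stfa3: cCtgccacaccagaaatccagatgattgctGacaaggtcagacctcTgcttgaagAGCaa
Stfa2: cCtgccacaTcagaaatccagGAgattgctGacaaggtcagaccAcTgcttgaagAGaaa
Stfa2l1: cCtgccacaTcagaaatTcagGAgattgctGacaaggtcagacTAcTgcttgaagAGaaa
Gm5483: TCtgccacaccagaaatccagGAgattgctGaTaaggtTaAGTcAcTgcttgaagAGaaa
Cstb: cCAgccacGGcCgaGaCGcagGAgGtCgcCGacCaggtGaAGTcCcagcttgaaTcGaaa
In this stretch BC100530 was unlike Stfa1 at 2 bases, Stfa3 at 6, Stfa2 at 9, Stfa2l1 at 11, Gm5483 at 14 and Cstb at 22. Over the whole coding sequence Stfa1 and BC100530 were 97.9% identical and Stfa2 and Stfa2l1 96.4%. The other stefin A pairs were 73.1% to 81.6% identical, and Cstb was 52.1% to 61.7% identical to the stefin A genes.

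Shared sequence was counted as 31-base words of the annotated coding transcripts, since kallisto by default assigns reads by words of this length. BC100530 shared 44.5% of its words with Stfa1, and Stfa1 shared 36.9% of its words with BC100530. Stfa2 shared 25.9% of its words with Stfa2l1, and Stfa2l1 shared 29.3% with Stfa2. Gm5483 shared 45.3% with 2010005H15Rik, another copy in the cluster. Stfa3 and Cstb shared no word with any other coding transcript. The authors' estimates can therefore pass reads between the copies of a pair, and the values of Stfa1, BC100530, Stfa2, Stfa2l1 and Gm5483 are uncertain gene by gene. Their sum is not changed by such an exchange within the set, apart from differences in transcript length. An exchange with a copy outside the set would change it, so the sum with the other copies is given too. Besides 2010005H15Rik with Gm5483, BC117090 shared 39.2% of its words with Stfa1 and 42.0% with BC100530.

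**Figure D1:**
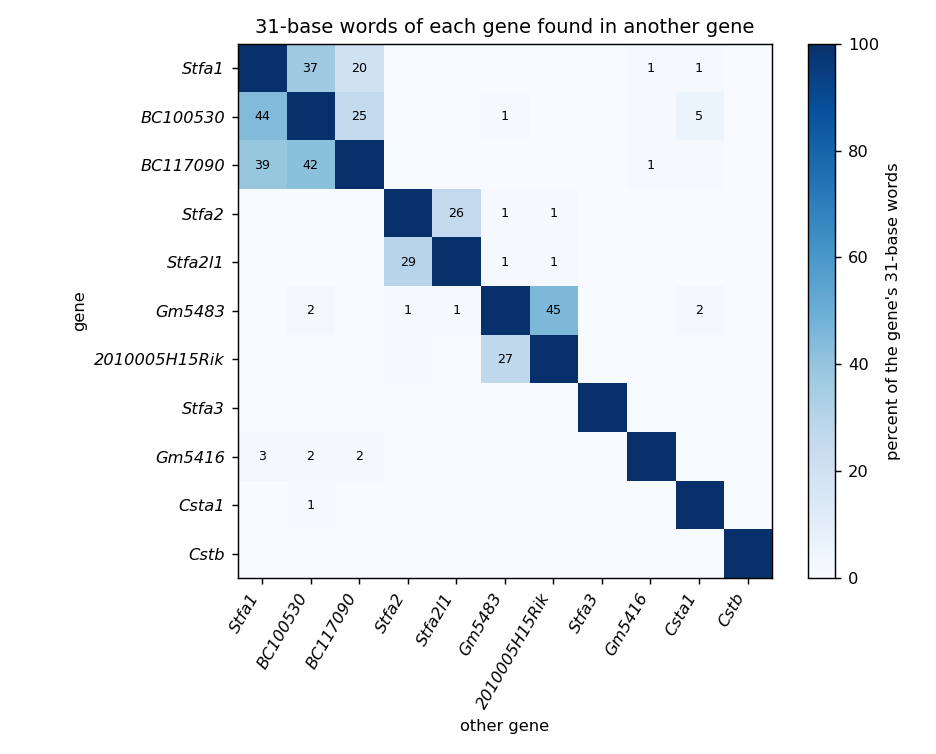
Percentage of the 31-base words of each row's coding transcripts that also occur in the transcripts of each column's gene, for the 7 genes and BC117090, 2010005H15Rik, Gm5416 and Csta1. The gene listed as Gm4758 is not shown, and it shared 12.4% of its words with Gm5483. Stfa1 with BC100530, Stfa2 with Stfa2l1 and Gm5483 with 2010005H15Rik share large blocks, while Stfa3 and Cstb share none.

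Values are FPKM, in which fragments are divided by transcript length and by the size of the library. Low values came in steps of single fragments, which gave implied depths of 31700000 to 39400000 fragments in the guide libraries, against 32200000 and 45500000 in the EV libraries. For the stefin A genes, 3 fragments correspond to 0.147 to 0.406 FPKM, so many of the guide values rest on a few fragments. This floor covers counting error only. Differences are on the log2(FPKM + 1) scale, on which a low gene seems to change less than it does.

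The stefin A transcripts together stood far lower with either guide than with the empty vector. Their sum was 1.41 and 7.59 FPKM with sg2, 1.08 and 1.5 FPKM with sg5, and 16.5 and 21.8 FPKM in EV. All 4 guide libraries lay below both EV libraries, and the second sg2 library was the highest of the 4. On average the guide libraries had 2.89 ± 3.14 FPKM (SD, n = 4) and the EV libraries 19.2 ± 3.72 FPKM (SD, n = 2), a ratio of 15.1% and a log2 difference of -2.63. As a share of the EV library with its replicate number, the sum was 8.55% and 34.8% for sg2 and 6.53% and 6.87% for sg5. Among the libraries numbered 1 the log2 difference was -2.97, and among those numbered 2 it was -2.30. The implied fragments behind the sums were 19.4 and 83.6 with sg2, 8.99 and 19.6 with sg5, and 149.9 and 284 in EV. Gm5483 made up 7.67% and 43.2% of the sum with sg2, 61.9% and 7.02% with sg5, and 44.4% and 34.4% in EV. In these bulk libraries, fewer cells that make stefin A and less stefin A RNA per cell cannot be told apart.

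**Figure D2:**
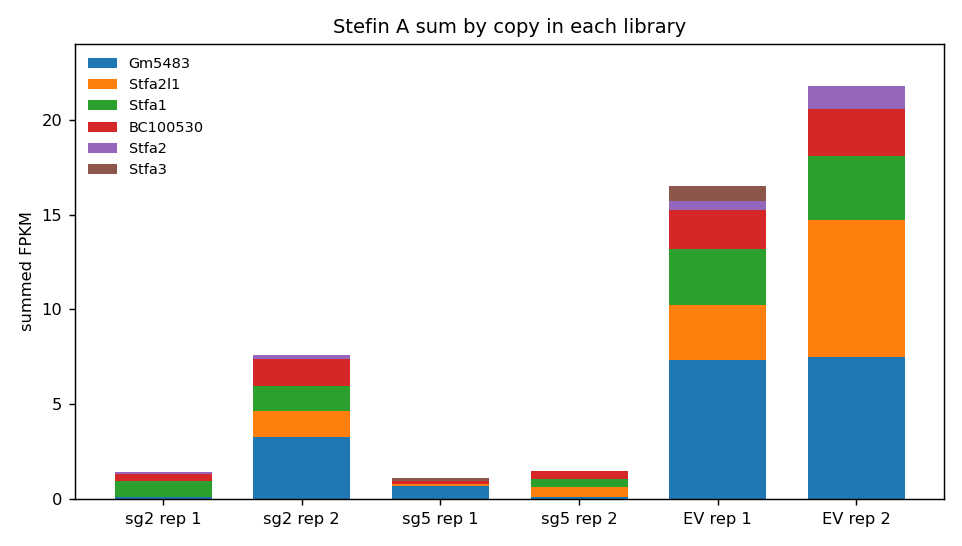
Summed FPKM of the 6 stefin A genes in each library (bars, axis from 0), stacked by gene, with the guides left of EV. The 4 guide libraries reach 1.08 to 7.59 FPKM and the 2 EV libraries 16.5 and 21.8 FPKM.

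Stfa1, which encodes a stefin A, had 0.853 and 1.33 FPKM with sg2, 0 and 0.413 FPKM with sg5, and 2.96 and 3.38 FPKM in EV. It was listed at 0 in the first sg5 library and was above 2 FPKM only in EV. On average the guide libraries had 0.650 ± 0.574 FPKM (SD, n = 4) and the EV libraries 3.17 ± 0.294 FPKM (SD, n = 2), a ratio of 20.5%, with a log2 difference of -1.41 (SE 0.39).

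BC100530, the near-copy of Stfa1 on the other strand, had 0.348 and 1.41 FPKM with sg2, 0.144 and 0.453 FPKM with sg5, and 2.05 and 2.46 FPKM in EV. The guide and EV values did not overlap, and the second sg2 library came closest to EV. Its guide mean was 0.588 ± 0.561 FPKM (SD, n = 4) against 2.25 ± 0.291 FPKM in EV (SD, n = 2), which is 26.1%, and the log2 difference was -1.09 (SE 0.36). Summed with Stfa1, the pair had 1.20 and 2.74 FPKM with sg2, 0.144 and 0.866 FPKM with sg5, and 5.01 and 5.84 FPKM in EV. Gm15845, which the annotation places antisense to the start of BC100530, had 0 to 0.291 FPKM with the guides and 0.0800 and 0.152 FPKM in EV. The sources used here do not say whether reads were assigned by strand.

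Gm5483 was the most abundant stefin A gene in EV. It had 0.108 and 3.28 FPKM with sg2, 0.668 and 0.105 FPKM with sg5, and 7.33 and 7.50 FPKM in EV. The second sg2 library carried most of the guide signal, at about 28.8 implied fragments, where the other guide libraries had 1.00 to 4.97. On average the guide libraries had 1.04 ± 1.51 FPKM (SD, n = 4) and the EV libraries 7.42 ± 0.118 FPKM (SD, n = 2), a ratio of 14%, and the log2 difference was -2.29 (SE 0.58).

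Stfa2l1 had 0 and 1.36 FPKM with sg2, 0.134 and 0.525 FPKM with sg5, and 2.88 and 7.23 FPKM in EV. The EV libraries themselves differed widely here, and the guide values stayed below both. On average the guide libraries had 0.504 ± 0.610 FPKM (SD, n = 4) and the EV libraries 5.06 ± 3.08 FPKM (SD, n = 2), a ratio of 9.96%, and the log2 difference was -1.99 (SE 0.48). Stfa2, its near-copy, was scarce, at 0.104 and 0.218 FPKM with sg2, listed at 0 in both sg5 libraries, and at 0.505 and 1.22 FPKM in EV. Stfa2 averaged 0.0805 ± 0.104 FPKM with the guides (SD, n = 4) and 0.863 ± 0.506 FPKM in EV (SD, n = 2), with a log2 difference of -0.76. That difference was -0.48 without the second EV library and -1.04 without the first. The pair summed to 0.104 and 1.57 FPKM with sg2, 0.134 and 0.525 FPKM with sg5, and 3.39 and 8.45 FPKM in EV.

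Stfa3 was at the limit of detection. It was listed at 0 in both sg2 libraries and in the second sg5 library, at 0.135 FPKM in the first sg5 library, and at 0.792 and 0 FPKM in EV. These values amount to about 0.994 fragments in the sg5 library and 5.97 in the first EV library, and the groups overlapped. Its log2 difference of -0.38 rested on that EV library and was 0.046 without it.

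Cstb, the stefin B gene, stood apart from the stefin A genes in level and in the comparison. It had 77.9 and 82.1 FPKM with sg2, 70.8 and 86.0 FPKM with sg5, and 73.3 and 98.4 FPKM in EV. The guide and EV values overlapped, with means of 79.2 ± 6.49 FPKM for the guides (SD, n = 4) and 85.8 ± 17.8 FPKM for EV (SD, n = 2), a ratio of 92.2%. The log2 difference of -0.10 (SE 0.17) was 0.11 without the second EV library. Set against Cstb in the same library, the stefin A sum was 1.82% and 9.25% with sg2, 1.52% and 1.74% with sg5, and 22.5% and 22.1% in EV.

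**Figure D3:**
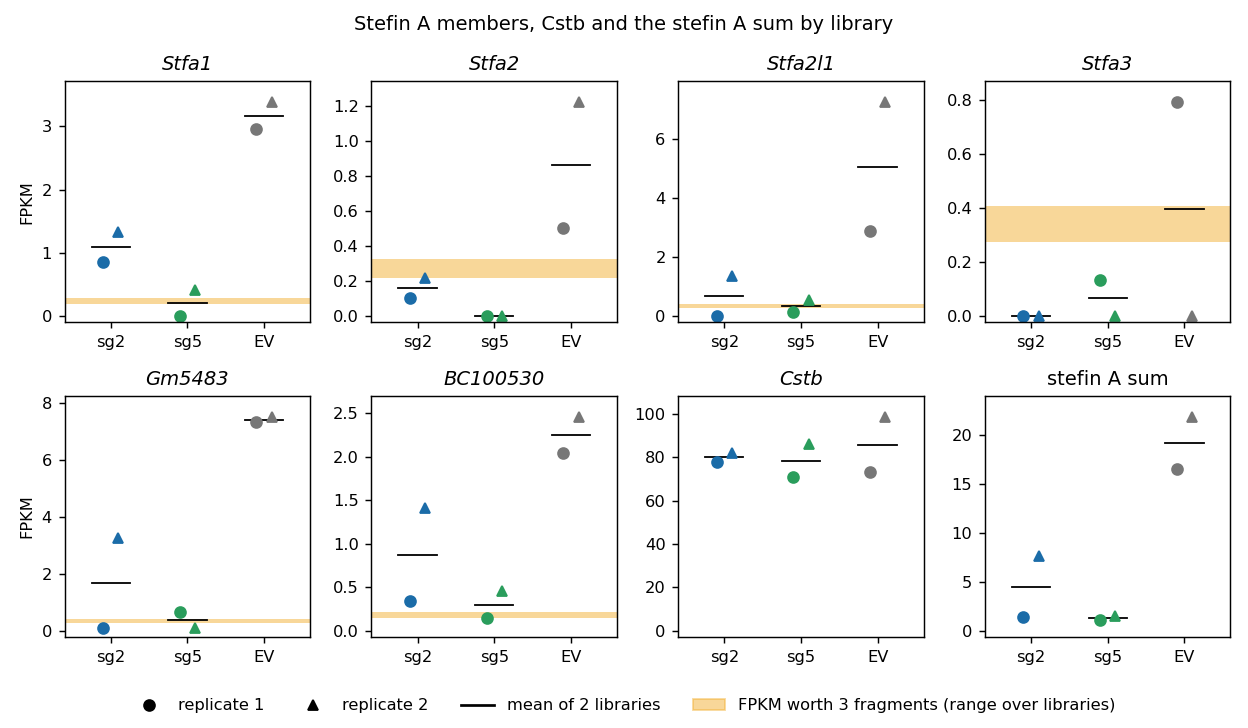
FPKM of each of the 7 genes and of the stefin A sum in the 2 sg2, 2 sg5 and 2 EV libraries (circles replicate 1, triangles replicate 2, lines the group mean), each panel with its own axis. The shaded band is the FPKM that 3 fragments are worth, 0.147 to 0.406 over the stefin A genes. Stfa1, Stfa2, Stfa2l1, Gm5483 and BC100530 have every guide library below both EV libraries, while Stfa3 and Cstb overlap.

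In order of mean level, the guide libraries had Cstb, Gm5483, Stfa1, BC100530, Stfa2l1, Stfa2 and Stfa3, and the 4 stefin A genes from Gm5483 to Stfa2l1 overlapped one another there. In EV the order was Cstb, Gm5483, Stfa2l1, Stfa1, BC100530, Stfa2 and Stfa3. In EV, Stfa2l1 and Stfa1 overlapped, as did Stfa2 and Stfa3, and the gap between Gm5483 and Stfa2l1 was smaller than the SD of Stfa2l1.

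Of the 7 genes, 5 passed the filter of a mean of at least 1 FPKM and were tested in the fits over all genes, while Stfa2 and Stfa3 did not. All guide libraries were below both EV libraries for 5 of the 6 stefin A genes, of which 4 passed the filter, where 2.56% of the 12929 genes tested had this pattern and 2.54% had all guide libraries above both EV libraries. The choice of the genes used that contrast, so nothing is read from the count. By limma with Benjamini-Hochberg adjustment, 0 of 12929 genes (0%) were called for the guides against EV. At an unadjusted p under 0.05 there were 169 genes (1.31%). With the replicate number as a block, 5 genes (0.0387%) were called and 739 had an unadjusted p under 0.05.

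The difference between the guides was not used in choosing the genes. However, Stfa1, Stfa2l1 and BC100530 passed the filter only through EV, with guide means of 0.650, 0.504 and 0.588 FPKM. The guide mean of Gm5483, 1.04 FPKM, rested on the second sg2 library at 3.28 FPKM. In the other guide libraries Gm5483 had 0.105 to 0.668 FPKM. For these genes the test between the guides compares low values, and no conclusion is drawn from it. With sg5 minus sg2, the log2 difference was -0.81 for Stfa1 (SE 0.34), -0.68 for Gm5483 (SE 0.68) and -0.48 for BC100530 (SE 0.42). For Stfa2l1 it was -0.22 (SE 0.60) and for Cstb -0.03 (SE 0.22). None of the 5 passed limma, with adjusted p = 1.0 for each and unadjusted p from 0.0647 for Stfa1 to 0.882 for Cstb. Over all genes limma called 0 of 12929 (0%), and 111 (0.859%) had an unadjusted p under 0.05. With the replicate number as a block, limma also called 0, and 684 had an unadjusted p under 0.05. For the stefin A sum, sg5 minus sg2 was -1.0, with an exact two-sided permutation p of 0.667, where 2 libraries against 2 allow no p below 0.333. Without the second sg2 library that difference was -0.08, and the design cannot show that the guides act alike.

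Other copies of the cluster were also scarce. The gene 2010005H15Rik, which RefSeq names Csta2, had 0.356 and 1.67 FPKM with sg2, 0.439 and 1.39 FPKM with sg5, and 1.73 and 2.31 FPKM in EV. Gm5416, which RefSeq names Csta3, was listed at 0 in all 4 guide libraries and at 0.498 and 0.683 FPKM in EV. BC117090 was listed at 0 except for 0.127 FPKM in the second sg2 library and 0.101 FPKM in the second EV library. The gene listed as Gm4758 had 0.442 FPKM in the second sg2 library and was at 0 elsewhere, and Csta1 was at 0 with the guides and at 0.0119 and 0.00842 FPKM in EV. With these copies added, the sum was 1.77 and 9.83 FPKM with sg2, 1.52 and 2.88 FPKM with sg5, and 18.8 and 24.9 FPKM in EV, which puts the guide mean at 18.3% of the EV mean.

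Of 9 protein-coding genes within 250 kb of the cluster, the 6 before it passed the filter, and limma called 0 for the guides against EV, with 0 at an unadjusted p under 0.05 and log2 differences from -0.012 to 0.23. Ccdc58, 64.7 kb before the cluster, had 52.1 and 23.8 FPKM with sg2, 54.2 and 26.1 FPKM with sg5, and 49.5 and 21.9 FPKM in EV. It was higher in every library numbered 1 than in every library numbered 2. Casr, the calcium-sensing receptor gene 38.3 kb after the cluster, was listed at 0 in all 6 libraries. The other genes after it, Cd86 and Ildr1, were at or below 0.204 FPKM in every library and were not tested.

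A list of 38 proteases and inhibitors took in the cysteine cathepsins and legumain, cathepsins of other classes, calpains with calpastatin, and other cystatins. Papain-like cysteine cathepsins are the targets of stefins, and the cathepsins of other classes and the calpains are not. Of the list, 35 were found in the files by symbol, 12 were listed at 0 in every library and 13 were tested. Limma called 0 of the 13 for the guides against EV, with 0 at an unadjusted p under 0.05. With the replicate number as a block it also called 0, with 2 of the 13 at an unadjusted p under 0.05. Over all 12929 genes the block had 739 at that level. Of the 13 differences 9 were positive and 4 negative, with a median of 0.04. Of the cysteine cathepsins 4 were tested, with 1 difference positive, 3 negative and a median of -0.010. Of the other cystatins found by symbol 2 were tested, both positive. The rest of the 13 were 4 cathepsins of other classes and 3 calpain or calpastatin genes. Csta2 and Csta3, also on the list, are in the files as 2010005H15Rik and Gm5416 and are left out of these counts. Of them 2010005H15Rik was tested and not called, with a log2 difference of -0.68 and an unadjusted limma p of 0.119. Over all genes tested 6297 were positive and 6632 negative, with a median of -0.0046. Ctsl and Ctsf, which encode cathepsins L and F, were listed at 0 in all 6 libraries. By mean over the 6 libraries, Ctsz and Ctsb were the most abundant cysteine cathepsins, though Ctsc was above Ctsb in the first sg2 library and the first EV library.

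Ctsb, the gene of the lysosomal cysteine protease cathepsin B, had 63.3 and 86.7 FPKM with sg2, 69.5 and 93.8 FPKM with sg5, and 64.0 and 94.0 FPKM in EV. Ctsz, for cathepsin Z, had 132.9 and 158.4 FPKM with sg2, 126.6 and 150.5 FPKM with sg5, and 140.5 and 145.6 FPKM in EV. Both genes overlapped between guides and EV. Ctsd, for the aspartic protease cathepsin D, had 191.6 and 364.1 FPKM with sg2, 209.3 and 366.9 FPKM with sg5, and 187.8 and 348.9 FPKM in EV, so it went with the replicate number. Cst3, for the secreted cystatin C, and Capns1, the small subunit of the calpains, were the others of the 5 most abundant on the list. The log2 difference was 0.01 for Cst3 (SE 0.13) and 0.04 for Capns1 (SE 0.12).

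**Figure D4:**
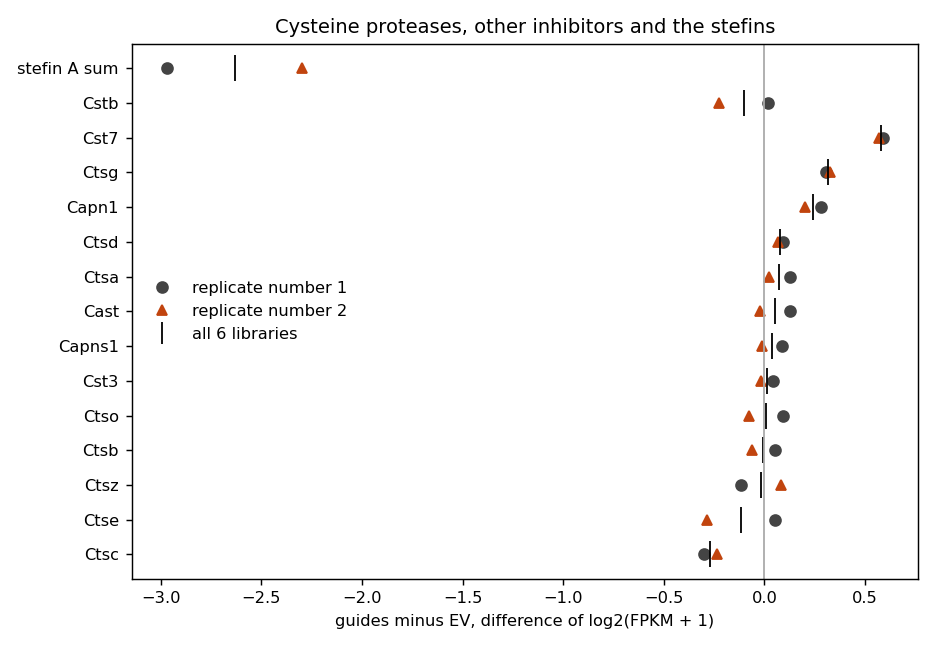
Guides minus EV, as the difference of log2(FPKM + 1), for the 13 tested cathepsins, calpain genes and cystatins, for Cstb and for the stefin A sum. Circles use the libraries numbered 1, triangles those numbered 2 and ticks all 6 libraries, and the stefin A sum, at -2.97 and -2.30 for the numbers, lies left of every other gene shown.

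Most neutrophil genes listed were also lower with the guides, as values and not as calls. Of 12 listed, 9 were tested, and all 9 log2 differences were negative. Itgam, 1 of them, overlapped, at 38.7 to 69.2 FPKM with the guides and 43.2 and 93.5 FPKM in EV. The summed level of 6 neutrophil markers, all of them in the files and none at 0 everywhere, was 131 to 188 FPKM in the guide libraries, against 446 to 678 FPKM in EV. Lcn2 made up most of the guide sum, at 103 to 177 FPKM, and had 190 and 202 FPKM in EV. S100a8, for a calcium-binding protein of neutrophils, had 0.905 and 1.39 FPKM with sg2, 2.47 and 2.83 FPKM with sg5, and 50.4 and 32.2 FPKM in EV. Camp, a defining gene of neutrophil granules, was at 0 to 0.0871 FPKM with the guides and 0.107 and 0.262 FPKM in EV. Cebpe had 14.4 and 18.7 FPKM with sg2, 19.4 and 22.7 FPKM with sg5, and 42.0 and 100.4 FPKM in EV, and the second sg2 library, highest in stefin A among the guide libraries, was not the highest in Cebpe. The summed level of 4 eosinophil markers, all in the files, was lower too, at 12.2 to 67.6 FPKM with the guides, against 80.9 and 261.6 FPKM in EV. Most of that sum was Epx, for eosinophil peroxidase, which had 8.77 and 55.1 FPKM with sg2, 35.1 and 61.6 FPKM with sg5, and 75.5 and 252.8 FPKM in EV. Siglecf overlapped, at 3.31 to 5.90 FPKM with the guides and 4.55 and 8.41 FPKM in EV, and Ccr3 was near 0 in every library. The part of the neutrophil and eosinophil genes in the stefin A result was not tested. Of 5 keratinocyte markers, a cell type that also makes stefin A, 4 were at 0 in every library, and Krt10 had 0.996 to 1.68 FPKM with the guides and 1.36 and 2.07 FPKM in EV.

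The 32D label was set against markers of myeloid progenitors. Their summed level was 599.7 to 891 FPKM with the guides and 551 and 762 FPKM in EV. Of the 9, 8 were above 0 and Kit was at 0 in every library. Cd34 was low, at 0.211 to 0.329 FPKM with the guides and 0.194 and 0.312 FPKM in EV. Prtn3 was the highest of them in every library, at 234 to 372 FPKM with the guides and 294 and 292 FPKM in EV. Markers of mast cells and basophils summed to 2258 to 3636 FPKM with the guides and 1553 and 3088 FPKM in EV. Most of that sum was Fcer1a, at 1733 to 2767 FPKM with the guides and 1081 and 2412 FPKM in EV. All 6 of these markers were tested and limma called 0 for the guides against EV. Their log2 differences were all positive, with a median of 0.54.

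The genes closest to the stefin A sum were taken by the root-mean-square difference of centred log2(FPKM + 1) values over the 6 libraries, among 12924 genes. Gm22106, a small nuclear RNA, came first at 0.376, followed by Olfm4, which encodes a glycoprotein of neutrophil granules, at 0.514. Gm22431, a miscellaneous RNA, stood at 0.572, Ltf, which encodes lactoferrin, at 0.603 and Mir1843b, a microRNA, at 0.676. Gm22106 and Mir1843b were at 0 in every guide library but the second sg2 library. The fragments behind the values of these 2 genes and of Gm22431 were not worked out. Olfm4 had 1.41 and 1.75 FPKM with sg2, 0.346 and 0.487 FPKM with sg5, and 6.80 and 9.40 FPKM in EV. Ltf had 0.927 and 2.44 FPKM with sg2, 0.718 and 2.70 FPKM with sg5, and 7.67 and 13.9 FPKM in EV. Cebpe had rank 19 at 0.843, Cstb stood at 1.35 and the median gene at 1.44. The points share libraries and depth, so these distances are a description of 6 libraries.

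**Figure D5:**
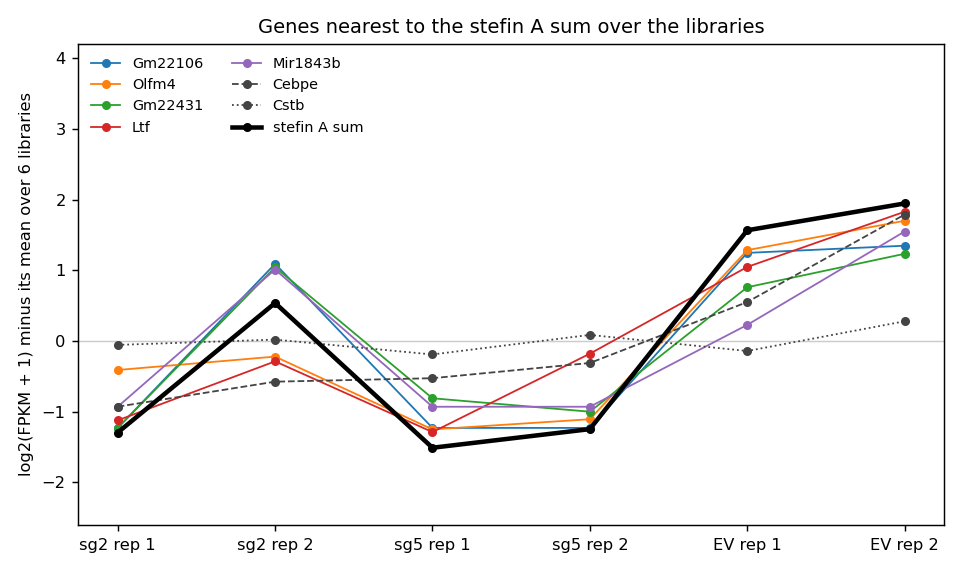
Centred log2(FPKM + 1) of the stefin A sum, of the 5 genes nearest to it, of Cebpe and of Cstb in the 6 libraries, guides left of EV. Olfm4, Ltf and the stefin A sum are high in both EV libraries, while Cstb stays close to its mean.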

How the data were processed

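RNA abundance was measured in 6 libraries of 32D cells: 2 with sg2, 2 with sg5 and 2 with EV. Per the labels' protocols, total RNA went through a TruSeq RNA kit and was read on an Illumina HiSeq instrument. The authors deposited FPKM values for 47606 genes in each library. Per the submitters' processing notes, the tools were DESeq2 and kallisto 0.43.0, and the builds mm10 and GRCm38 are listed without roles. Neither the annotation release nor how kallisto estimates became FPKM is stated in the sources used here. The 7 genes and the gene lists were chosen with earlier results of these data known.

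From the deposited FPKM, 12929 genes averaging 1 FPKM or more were fitted as log2(FPKM + 1). The fit used limma 3.58.1 (R 4.3.3), an intensity trend, Benjamini-Hochberg adjustment and a threshold of 0.05. The fit was tested on simulated data with a capped spread and no replicate effect, which does not show how it behaves on these libraries. Count models were not used because the values are FPKM. Depth was implied from the FPKM steps of long genes and tested on short ones, of which 97.5% to 98.9% of low values were whole within 0.15 fragments. Implied fragments of Stfa1, Gm5483 and BC100530, which have more than 1 transcript, used the length of a single coding transcript. Positions and coding sequences are from GENCODE M21 on GRCm38, which held 47187 of the gene IDs, and promoters from RefSeq (GRCm38.p6). The gene listed as Gm4758 carries another symbol in GENCODE M21, and Gm9825 lies on another chromosome and was left out of the cluster. Python 3.11.15, pandas 2.3.3, scipy 1.17.1 and Biopython 1.88 were used.

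Replicate numbers were taken as pairing the libraries only where values are given by number. Replicate 2 minus replicate 1, taken across genes, correlated between groups at 0.611 for sg2 and EV, 0.591 for sg5 and EV, and 0.583 for sg5 and sg2. This pairing comes from the data, as no label ties the number to a batch. The main fits left it out, so their SEs and p-values include the spread between the numbers. The replicate block was an alternative. Named genes were the 7, the other stefin A copies above 0, the nearest neighbours, the 5 most abundant listed proteases or cystatins with any called, the 5 genes nearest to the stefin A sum, and Cebpe. S100a8, Camp, Lcn2, Itgam, Epx, Siglecf, Ccr3, Krt10, Fcer1a, Prtn3 and Cd34 were named after their values were seen. So were Ctsc, Cd86, Ildr1, Kit, Ctsl, Ctsf, Gm15845 and the serine protease inhibitors. Alternatives were another pseudocount, filters, library size factors, no trend, the replicate block, leaving out each library, and the second sg5 library counted as sg2.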

Additional observations from a re-analysis of the deposited data

Results flagged for a closer look

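In the 4 guide libraries, 32 sets of values were checked for a library far from the other three by Dixon's ratio, and 7 were picked out, where chance picks about 5% of sets of ordinary values. That rate does not hold for Stfa3, BC117090, the gene listed as Gm4758, Gm22106 and Mir1843b, since a set with a single value above 0 is always picked out. The second sg2 replicate had the high stefin A sum of 7.59 FPKM, against 1.08 to 1.5 FPKM in the other guide libraries and 16.5 and 21.8 FPKM in EV. It also held 0.127 FPKM of BC117090 and 0.442 FPKM of the gene listed as Gm4758, both at 0 in the other guide libraries.

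Gm22106, Gm22431 and Mir1843b were looked at because their values are near those of the stefin A sum, so a high value in the same library follows from that choice. Gm22106 had 3.99 FPKM there and was at 0 in the other guide libraries, against 4.56 and 4.96 FPKM in EV. Gm22431 had 25.4 FPKM there and 4.46 to 6.30 FPKM in the other guide libraries, against 20.7 and 29.1 FPKM in EV. Mir1843b had 2.84 FPKM there and was at 0 in the other guide libraries, against 1.23 and 4.57 FPKM in EV. The other value was Stfa3 at 0.135 FPKM in the first sg5 library, with 0 in the other guide libraries.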

How the results depend on the processing

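The stefin A sum kept its direction for the guides against EV under all 9 alternatives, with log2 differences from -3.14 to -2.42. Leaving out each library gave -3.11 to -2.42 for the guides, -3.05 to -1.22 for sg2 and -3.32 to -2.94 for sg5 against EV, and -1.91 to -0.083 for sg5 against sg2. With a pseudocount of 0.1 FPKM the sum for sg5 against EV was -3.80. With that pseudocount the median over the 6 stefin A genes was -2.58, where it was -1.25 with 1 FPKM and -1.45 to -1.07 without each library. Without each library in turn, Stfa2 ranged from -1.04 to -0.48, Stfa3 from -0.80 to 0.046, and Cstb from -0.31 to 0.11. Stfa3 turned positive without EV replicate 1, and Cstb without EV replicate 2. The causes were not tested. For the guides against EV the count of genes called was 0 as reported, 5 with the replicate block, 6 with no filter, 4 with no intensity trend, and 0 to 1 without each library. For sg5 against sg2 it was 0 as reported, 0 with the replicate block and 23 with no filter. The replicate block changed no other call. Low depth at the stefin A genes, down to 8.99 implied fragments for the whole sum, limits what can be said of each copy.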

Other observations

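Inhibitors of other protease classes, chosen after their values were seen, are given beside the stefins. Serpinb1a, for an inhibitor of neutrophil serine proteases, had 22.9 and 29.4 FPKM with sg2, 38.4 and 39.2 FPKM with sg5, and 23.0 and 37.6 FPKM in EV. Slpi, for a secreted inhibitor of leukocyte elastase, had 10.2 and 15.7 FPKM with sg2, 20.0 and 28.1 FPKM with sg5, and 13.3 and 25.6 FPKM in EV. Both overlapped between guides and EV, and limma called 0 of 6 such genes for the guides against EV, with 0 at an unadjusted p under 0.05 and log2 differences from -0.53 to 0.21.

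Serpina3g, a mouse serpin known to inhibit cathepsin B as well as serine proteases, went with the replicate number. It had 403 and 17.6 FPKM with sg2, 206 and 17.8 FPKM with sg5, and 461 and 23.5 FPKM in EV. Every library numbered 1 was above every library numbered 2.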
